A study of Cucumis melo with 30 samples.

Results

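In fruit of the oriental melon cultivar YMR-WF, 32 of 27427 genes stood at least 4-fold above their level in the cultivar HDB-OF on days 25, 30 and 35 after anthesis, the opening of the flower, while the cultivars were within 2-fold of each other on day 5. The ratio that chose them is the YMR mean plus 1 over the HDB mean plus 1, in CPM, counts per 1000000 counts of the library. Each mean covers 3 libraries. The measured values of days 5, 25, 30 and 35 therefore made the selection, so those days, and changes that start or end on them, are described here without a test. The 6 libraries of day 15 took no part in it.

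Oriental melon is a group of thin-skinned Cucumis melo cultivars. Total RNA of fruit was sequenced from YMR-WF (YMR from here on) and HDB-OF (HDB) at days 5, 15, 25, 30 and 35, with 3 libraries in each of the 10 groups. No treatment is labelled, and the labels name neither the part of the fruit sampled nor the day on which it was ripe. Library totals lay between 17299247 and 23261097 counts. Whether a group's libraries are separate fruits is not labelled, and the p-values below rest on the spread among them, which may be technical in part.

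A melon fruit first grows by cell division, then by cell expansion, and then ripens, when its flesh softens, sugars accumulate, and aroma and pigment change. Transcripts of an early phase commonly fade as the next one begins, and others appear only with ripening. A gene can thus be higher in 1 of 2 cultivars late in development through a gain there or through a loss in the other. None of the 27427 identifiers matched the table of 28628 melon genes at hand, so no gene below has a name, a role, a sequence, a length or a position, and levels are compared within a gene and not between genes. For the same reason the labelled tissue could not be checked against marker genes. In RNA from whole tissue, fewer cells of a type and less RNA per cell cannot be told apart.

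The 32 genes were of 2 kinds. In 14 of them, called gain-only here, the YMR mean over days 25, 30 and 35 was at least 2 times the YMR day 5 mean, and the HDB mean had not dropped to 0.5 of its own day 5 mean, all with 1 CPM added. In 17 others, called loss-only, HDB had dropped to 0.5 of its day 5 mean or less, and YMR had not reached 2 times its own. The remaining gene, MELO3C025761, met both conditions, and 0 of 32 met neither. Among all 18426 genes that passed the low-count filter, 9.5% were gain-only, 29.1% loss-only, 0.488% both and 60.9% neither. The choice of members makes a gain in YMR or a loss in HDB likely, so the absence of the last kind is no finding. With respect to the working name of ripening-stage genes specific to YMR, the values fit a late difference between the cultivars for all 32. They go against a reading as genes read in YMR alone: 0 of 32 were without a count in the 9 HDB libraries of days 25, 30 and 35, and 13 had an HDB mean above 10 CPM on at least 1 of these days. Among all genes tested 2.46% were without a count there. An HDB mean under 1 CPM at each of these days was found in 3 of 32, against 17.8% of all genes tested.

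**Figure D1:**
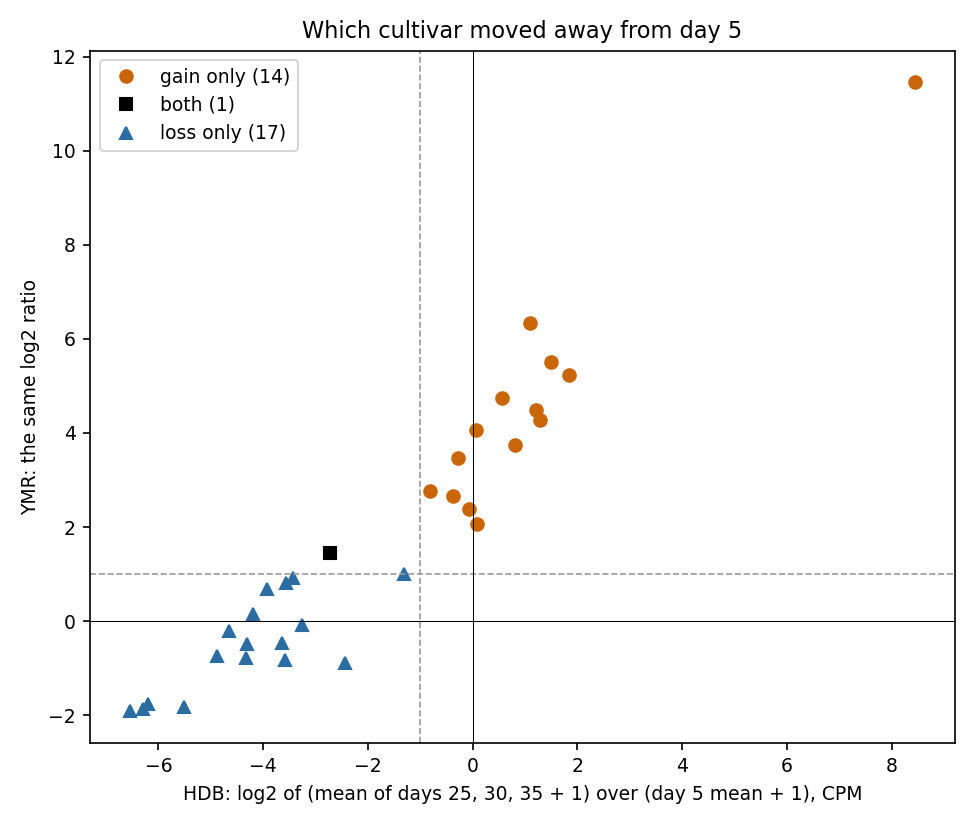
Each point is 1 of the 32 genes. The vertical axis gives the YMR change from day 5 to the mean of days 25, 30 and 35 as a log2 ratio of CPM plus 1, the horizontal axis the same for HDB, and the dashed lines mark a 2-fold rise in YMR and a drop to 0.5 in HDB. The 14 gain-only genes lie above the horizontal dashed line, the 17 loss-only genes lie left of the vertical one, and 1 gene lies in both zones.

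Across the 32 genes the median ratio of YMR to HDB was 13.1 at day 25, 8.51 at day 30 and 7.12 at day 35, against 0.929 at day 5. These values follow from the selection. The classes ran in opposite orders: the median ratio of the gain-only genes was 7.21 at day 25, 10.1 at day 30 and 12.1 at day 35, and that of the loss-only genes was 18.6, 7.83 and 5.84. Every YMR library lay above every HDB library for 18.8%, 13.7% and 22.1% of all 18426 genes tested at days 25, 30 and 35. Among the members, whose selection on these libraries favours such a gap, it held for 32 of 32 at days 25 and 30 and for 31 of 32 at day 35. The exception was the loss-only gene MELO3C006036, named for this overlap, with 4.79, 29.9 and 24.2 CPM in the YMR libraries of day 35 and 5.13, 0.468 and 2.02 CPM in those of HDB. There the first YMR library fell just below the first HDB library, and the other two stood above all of HDB. Together the 32 genes took 0.335% ± 0.0599 of the counts in YMR and 0.39% ± 0.104 in HDB at day 5 (SD, n = 3 each). At day 25 they took 1.03% ± 0.0251 in YMR and 0.146% ± 0.0139 in HDB, and at day 35 0.425% ± 0.0452 in YMR and 0.0411% ± 0.00886 in HDB. Much of the day 25 share was MELO3C006965, with a mean of 4137 CPM in YMR and 870 CPM in HDB.

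**Figure D2:**
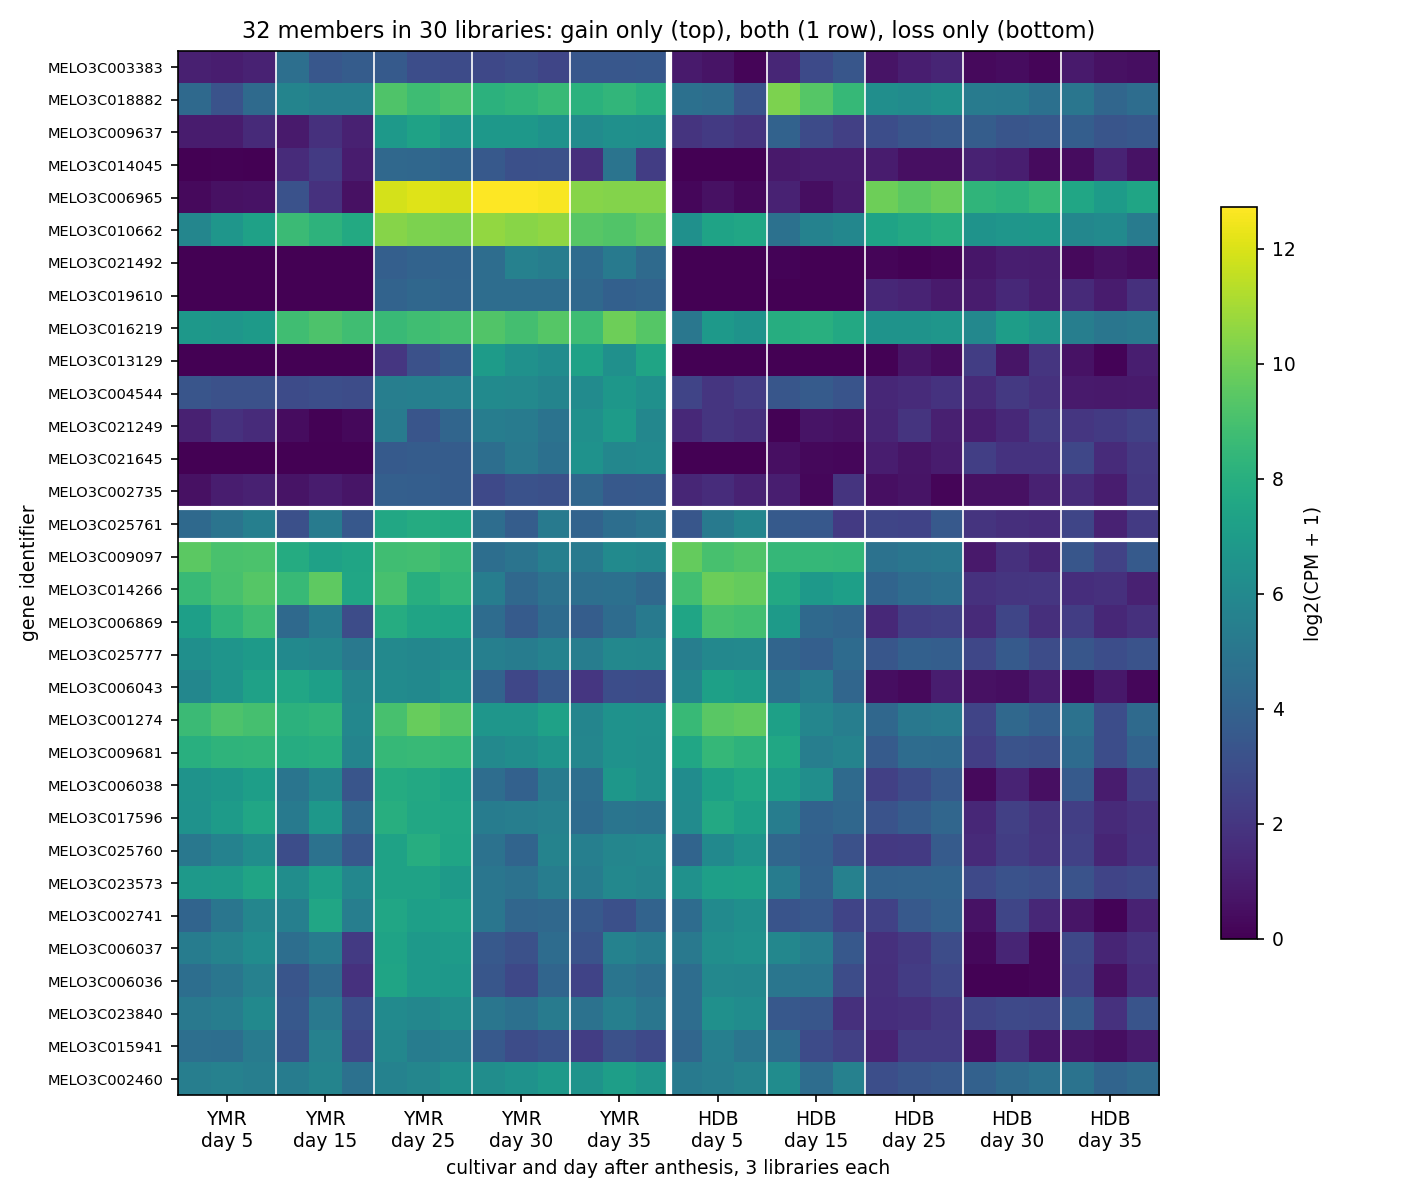
Columns are the 30 libraries, with YMR on the left and HDB on the right, each from day 5 to day 35, and rows are the 32 genes. Colour gives log2(CPM + 1). The 14 gain-only rows are brighter in YMR from day 25 on than at day 5, MELO3C003383, MELO3C010662 and MELO3C016219 already at day 15. The 17 loss-only rows start bright in both cultivars and darken in HDB, and most of them have a bright day 25 in YMR.

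Gain-only genes covered a wide span of starting levels. Their YMR mean at day 5 was below 1 CPM in 7 of 14, and the highest of the 14 was 110 CPM. MELO3C006965, the member with the most reads in late YMR fruit, had 0.26, 0.468 and 0.515 CPM in the YMR libraries of day 5 and 0.167, 0.471 and 0.227 CPM in those of HDB. At day 25 it had 3794, 4452 and 4165 CPM in YMR and 977, 728 and 905 CPM in HDB. Its reads thus became abundant by day 25 in both cultivars, to different levels. At day 30 the YMR libraries held 6741, 6631 and 6133 CPM and the HDB libraries 320, 288 and 363 CPM, and at day 35 YMR held 1337, 1299 and 1293 CPM and HDB 182, 124 and 176 CPM. In HDB it was past its highest level by day 30, while in YMR the day 30 libraries were the highest. No library of one cultivar reached into the range of the other at any of the 3 late days.

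MELO3C010662, the second by reads, was present in both cultivars from the start. It had 55.3, 102 and 153 CPM in YMR and 81.6, 164 and 185 CPM in HDB at day 5. At day 30 it had 1632, 1408 and 1555 CPM in YMR and 90.5, 101 and 104 CPM in HDB. The HDB mean over days 25, 30 and 35 was 0.828 times its day 5 mean, and the YMR mean was 11 times its own. YMR was thus far above its early level. In HDB only the average of the late days was close to day 5. The HDB means were 143 CPM at day 5, 44 at day 15, 203 at day 25, 98.5 at day 30 and 54.4 at day 35.

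MELO3C021492 and MELO3C004544 were the members whose smallest late ratio was greatest, 14.6 and 14.5. MELO3C021492 had no count in any library of day 5 and none in YMR at day 15. Its YMR libraries held 13.5, 15.8 and 16.1 CPM at day 25 and 22.5, 48 and 41 CPM at day 30. The HDB libraries held 0.146, 0.0443 and 0.138 CPM at day 25 and 0.703, 1.12 and 1.04 CPM at day 30, so its reads appeared in HDB too, far below YMR. MELO3C004544 had a higher YMR mean at each of the late days: 42, 44 and 46.1 CPM for day 25, 67, 62.3 and 51.8 CPM for day 30, and 68.2, 106 and 82.3 CPM for day 35. Its HDB libraries held 1.71, 1.99 and 2.61 CPM at day 25 and 0.872, 0.831 and 0.867 CPM at day 35.

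Of the 14 gain-only genes, 6 were also at least 2 times their day 5 mean in late HDB fruit. In 13 of 14 the YMR mean of day 30 was above 0.5 of that of day 25. The summed YMR level of the class did not hold to day 35. Its mean rose from 6615 CPM on day 25 to 9356 on day 30, then fell to 3505 by day 35. From day 30 to day 35 MELO3C006965 fell from 6502 to 1310 CPM in YMR, and MELO3C010662 from 1532 to 685 CPM. The median of the 14 YMR means rose instead, from 19.3 CPM on day 25 to 48.8 on day 30 and 81.4 by day 35. MELO3C003383, for which YMR was highest at day 15, also belonged to this class. Its YMR libraries held 24, 9.83 and 12.2 CPM at day 15 and 9.93, 10 and 10.3 CPM at day 35, and its HDB libraries 1.56, 6.28 and 9.55 CPM at day 15 and 0.872, 0.468 and 0.405 CPM at day 35.

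Loss-only genes started high in both cultivars. The median of their 17 group means was 103 CPM in YMR and 110 CPM in HDB at day 5. In YMR it was then 51.7 CPM on day 15, 162 on day 25, 30.9 on day 30 and 33.9 on day 35. In HDB it was 33.9 CPM on day 15, 9.13 on day 25, 2.89 on day 30 and 3.26 on day 35. The YMR course therefore had a dip at day 15 and a second high point at day 25, where HDB continued downward. The day 25 mean of YMR was above its day 15 mean in 15 of 17 genes and above its day 5 mean in 12 of 17, and in 15 of 17 the day 30 mean was below 0.5 of the day 25 mean. By day 35 the YMR mean was below that of day 5 in 15 of 17. So most of these genes faded in YMR as well, later than in HDB and less far. The rule and the class favour this order, since they ask for a drop in HDB and a higher late level in YMR.

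MELO3C001274 shows this course. It had 404, 565 and 492 CPM in YMR and 375, 712 and 786 CPM in HDB at day 5. At day 25 it had 515, 858 and 676 CPM in YMR and 18.2, 33.6 and 38.3 CPM in HDB, a wide gap with no overlap. At day 35 the YMR libraries held 53.6, 87.2 and 86.6 CPM and the HDB libraries 26.6, 7.06 and 20.1 CPM, and its ratio of 4.06 was close to the limit of 4. MELO3C009681 ran in parallel, with 360, 378 and 364 CPM in YMR and 11.6, 21.4 and 20.8 CPM in HDB at day 25, and 56.3, 89.2 and 82.2 CPM in YMR and 21, 7.06 and 14.8 CPM in HDB at day 35.

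In MELO3C009097 and MELO3C014266 the YMR mean was highest at day 5. MELO3C009097 had 448, 459 and 377 CPM in YMR and 26.3, 31.3 and 32.9 CPM in HDB at day 25. By day 30 it was down in both, at 23.2, 29 and 43.7 CPM in YMR and 0.812, 2.34 and 1.48 CPM in HDB. MELO3C014266 had 523, 252 and 332 CPM in YMR and 16.1, 21.6 and 24.8 CPM in HDB at day 25, and 24, 24.6 and 19 CPM in YMR and 2.2, 2.44 and 1.21 CPM in HDB at day 35. MELO3C006043, highest in YMR at day 15, had means of 72.8, 10.4 and 5.61 CPM in YMR over days 25, 30 and 35, against 0.57, 0.598 and 0.369 CPM in HDB.

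MELO3C002460 departed from the other loss-only genes. Its YMR mean was higher at each of the late days, while the libraries of neighbouring days overlapped, with 48.7, 56.2 and 80.8 CPM on day 25, then 75.5, 88.9 and 117 CPM on day 30, then 91.3, 138 and 102 CPM on day 35. In HDB the libraries of day 25 were its lowest, at 7.41, 9.16 and 10.8 CPM, and those of day 35 held 27.5, 16 and 19.9 CPM. Its YMR mean over the late days was 1.99 times that of day 5, so a slightly higher value would have put it in both classes, beside MELO3C025761. That gene had 194, 222 and 212 CPM in YMR and 5.41, 4.82 and 10.7 CPM in HDB at day 25, and 15.5, 23.4 and 28.4 CPM in YMR and 5.33, 1.35 and 3.53 CPM in HDB at day 35.

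**Figure D3:**
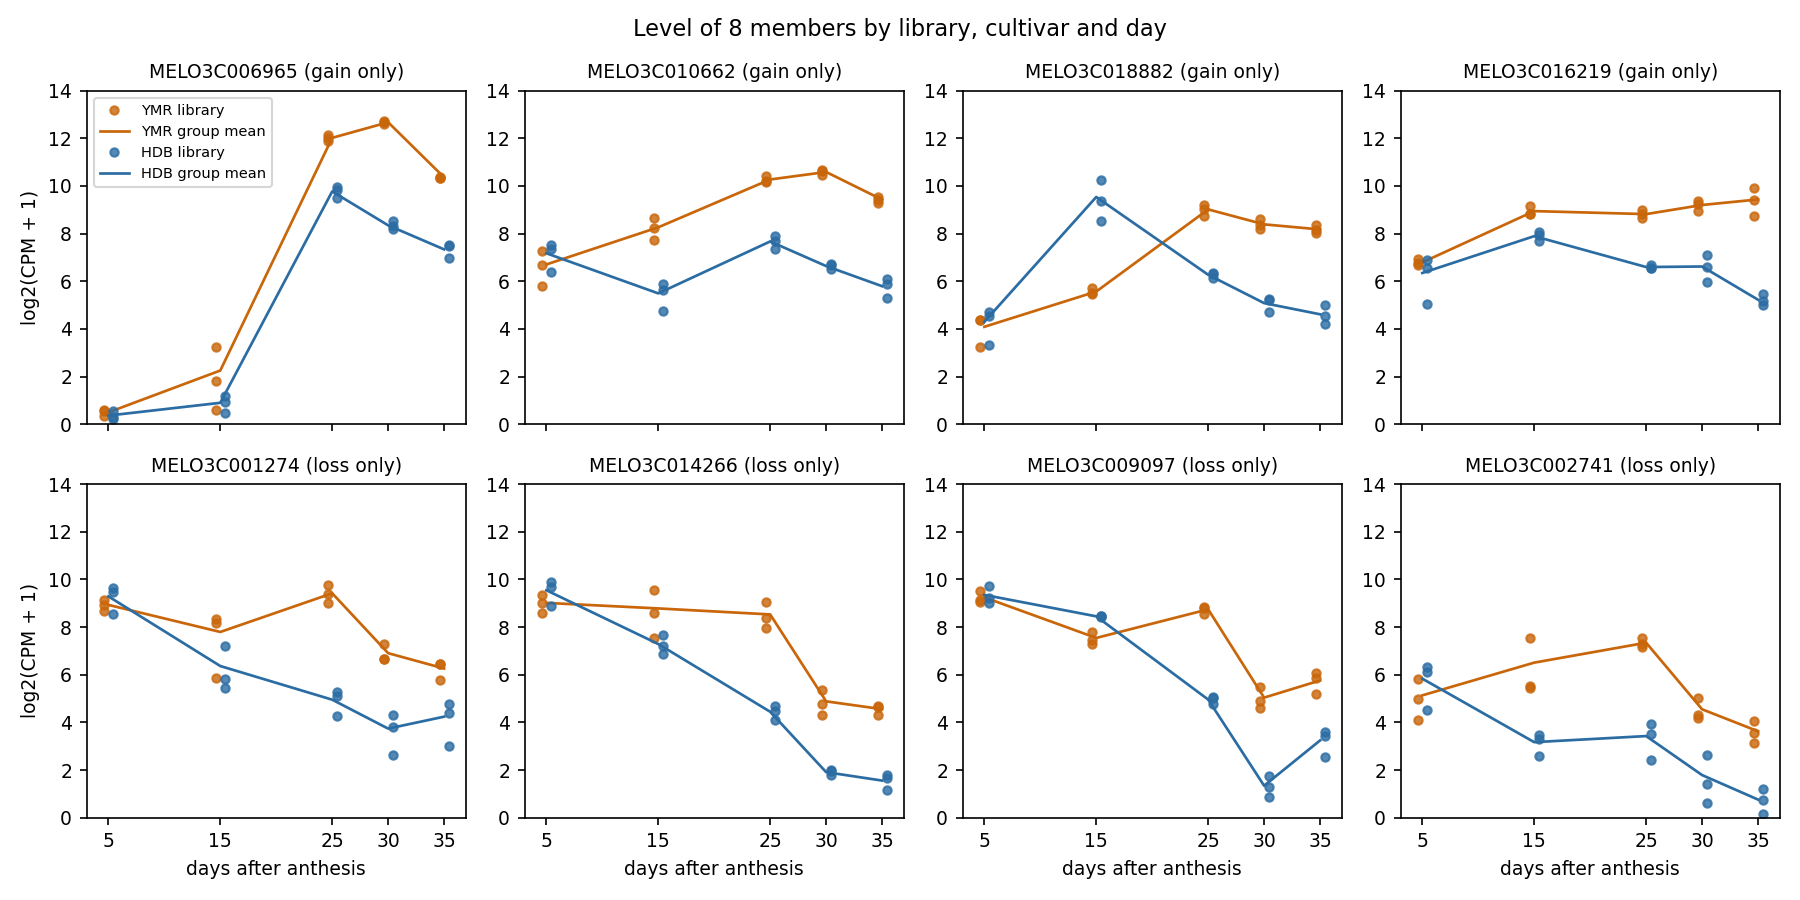
Points are single libraries and lines join group means, on a log2(CPM + 1) axis over days after anthesis, with YMR in orange and HDB in blue. Of the 8 genes, the 4 in the upper row are gain-only and the 4 in the lower row loss-only. In MELO3C018882 and MELO3C016219 the HDB line peaks at day 15, ahead of the YMR peak, which is at day 25 and day 35 respectively.

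Loss-only genes also moved together between the libraries of a group. The selection used group means and not the order of libraries within a group. The libraries of days 5, 25, 30 and 35 nevertheless chose the members and made the classes, so the counts are a description. At day 5 the first HDB library was the lowest of its 3 in 16 of 17 genes, and the first YMR library in 15 of 17. Among all 18426 genes tested the same libraries were lowest in 22.2% and 35.8%. At day 25 the first HDB library was lowest in 16 of 17 and the third highest in 14 of 17, against 31.9% and 28.9% of all genes tested. At day 35 the first YMR library was lowest in 15 of 17 and the second HDB library in 15 of 17, against 32.9% and 28% of all genes. A joint order was weakest in YMR at day 25, where the library lowest most often was so in 7 of 17. The genes share their libraries, so these counts describe 30 libraries and not 17 separate genes. In the gain-only class no library was the lowest in more than 9 of 14 genes, a count reached by the second HDB library of day 35.

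At day 15 the third YMR library was lowest in 15 of 17 loss-only genes and the second highest in 14 of 17, against 25.1% and 23.1% of all genes tested. What set these libraries apart was not tested. Without the third YMR library 13 members were higher in YMR at day 15 and 5 lower, with 7388 of all genes called (edgeR test given below). Without the second YMR library 7 were higher and 6 lower, with 6141 genes called. All libraries together gave 10 higher, 5 lower and 7536 genes called. The summed level of the loss-only class was 1672, 2429 and 752 CPM in the 3 YMR libraries of day 15 and 1479, 882 and 809 CPM in the HDB libraries. The YMR libraries thus spanned the HDB ones. In the gain-only class the sums at day 15 were 948, 937 and 735 CPM in YMR and 1496, 993 and 657 CPM in HDB, again overlapping. These sums rest on few genes. Of the HDB sums MELO3C018882 alone made up 1198, 655 and 368 CPM, and of the YMR sums MELO3C016219 made up 450, 566 and 456 CPM. The overlap of the sums therefore does not describe the single genes.

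**Figure D4:**
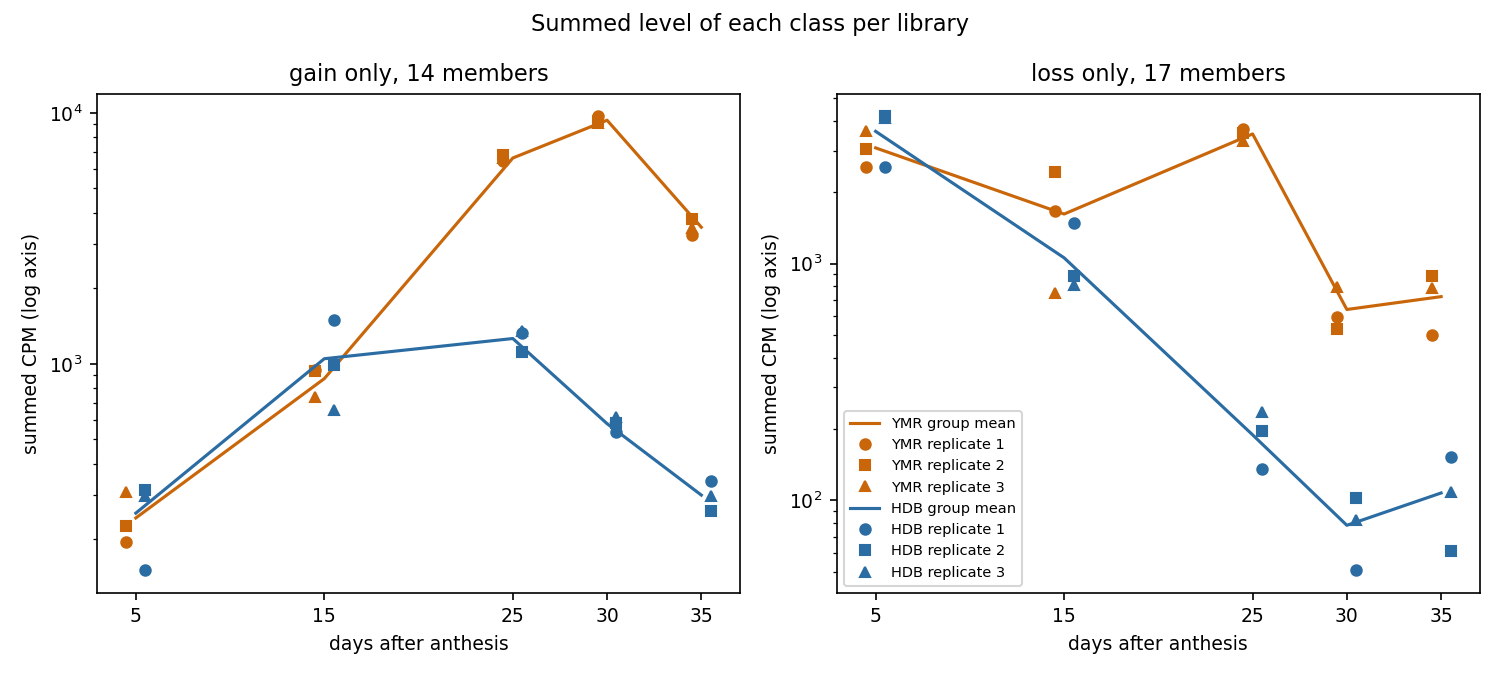
Summed CPM of the 14 gain-only genes (left) and the 17 loss-only genes (right) in each library, on log axes over days after anthesis, with YMR in orange and HDB in blue, a symbol for each replicate and a line through the group means. The cultivars overlap at days 5 and 15 and stand apart from day 25 on, and the loss-only sums of YMR return to a mean of 3526 CPM at day 25, against 189 CPM in HDB. Of the gain-only means at day 25, MELO3C006965 alone makes up 4137 of 6615 CPM in YMR and 870 of 1262 CPM in HDB.

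Some identifiers among the 32 follow each other. MELO3C006036, MELO3C006037 and MELO3C006038 are consecutive in number and in the table's rows, as are MELO3C025760 and MELO3C025761, which makes 3 consecutive pairs with 5 genes. They are named here because of their numbers, seen after their values. Across the 10 group means on the log2(CPM + 1) scale the pairs correlated at r = 0.989, 0.994 and 0.962, as a description, since the means share libraries. The same rule chose all 5 genes, which favours a high r, and pairs of members that are not consecutive were not compared. MELO3C006036 had 174, 119 and 108 CPM in YMR and 2.24, 3.76 and 5.55 CPM in HDB at day 25, MELO3C006037 had 165, 118 and 125 CPM in YMR and 2.44, 3.28 and 6.74 CPM in HDB, and MELO3C006038 had 228, 200 and 167 CPM in YMR and 4.34, 6.55 and 10.8 CPM in HDB. If these are near-identical copies, their reads may be split among them in ways the counts do not show.

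Whether the cultivars already differed in these genes before the late days was tested at day 15. All 32 members passed the low-count filter, but 5 of them, all gain-only, did not pass it on the 6 libraries of day 15 and owe their place in the test to other days. Among the 27 that did pass there, 10 were higher in YMR, where 21.8% of the 16864 genes passing likewise were, 4 were lower, against 22.0%, and 13 were not called (edgeR quasi-likelihood test, Benjamini-Hochberg adjusted p under 0.05 over those genes). In either direction that is 14 of 27, against 43.7%. With all 32 and all 18426 genes tested, 10 were higher, against a background of 20.4%, and 5 were lower, against 20.5%, so 15 were called in all, against 40.9%. The share called in either direction was thus near that of genes in general. By direction, with all libraries, 31.25% of the 32 were higher, above the background, and 15.6% were lower, below it. This tilt was not tested. The fitted median of the log2 difference, YMR minus HDB, was 1.05 over the 27, against 0.024 over the 16864 genes. Over the 32 it was 0.53, against 0.026 over the 18426 genes, with 2 of the 32 lacking any count on that day. Both the tilt and the member median depended on single libraries. Without the second YMR library of day 15, 7 members were higher and 6 lower, and their median was 0, against 0.028 over all genes. Without the third, 13 were higher and 5 lower, and their median was 0.77, against 0.0023.

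By class, of the 9 gain-only genes that passed on day 15, 4 were higher in YMR, 3 were lower and 2 were not called. Of the 17 loss-only genes 6 were higher, 1 was lower and 10 were not called. For the 90 genes chosen by the mirror rule, at least 4-fold lower in YMR at the 3 late days and within 2-fold at day 5, 72 were lower in YMR at day 15 and 4 were higher. The difference between these lists was not tested.

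MELO3C002741 and MELO3C010662 had the greatest positive differences among called members with a mean of at least 10 CPM. MELO3C002741, a loss-only gene, had 44.5, 183 and 42.4 CPM in YMR and 8.84, 10.2 and 5 CPM in HDB at day 15, a log2 difference of 3.53 (SE 0.69, edgeR adjusted p = 3e-04). The second YMR library stood far above the others, and without it the log2 difference was 2.37 (edgeR adjusted p = 0.0047). For MELO3C010662 the values were 405, 301 and 212 CPM in YMR and 26, 48.3 and 57.6 CPM in HDB, with a log2 difference of 2.80 (SE 0.34, edgeR adjusted p = 1.5e-06). All 3 YMR libraries of both genes lay above all 3 HDB libraries.

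MELO3C018882 and MELO3C009097 ran the other way. MELO3C018882 had 51.7, 43.4 and 44.2 CPM in YMR and 1198, 655 and 368 CPM in HDB, a log2 difference of -4.03 (SE 0.40, edgeR adjusted p = 1.2e-07), or -3.44 without the first HDB library. By day 25 the order had turned, with 589, 431 and 527 CPM in YMR and 77.9, 69.7 and 81.3 CPM in HDB. This gene was high in both cultivars, at day 15 in HDB and at day 25 in YMR. MELO3C009097 had 223, 157 and 177 CPM in YMR and 348, 353 and 346 CPM in HDB at day 15, a log2 difference of -0.93 (SE 0.27, edgeR adjusted p = 0.0087), and no library of YMR reached the HDB range. These 4 calls held under each of the 13 alternatives run.

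MELO3C006965 was also called higher in YMR at day 15, with 8.32, 2.49 and 0.504 CPM in YMR and 1.31, 0.387 and 0.91 CPM in HDB. The groups overlapped, and the log2 difference of 2.09 (SE 0.55, edgeR adjusted p = 0.0041) shrank to 0.85 without the first YMR library (edgeR adjusted p = 0.17). Likewise MELO3C001274 had 287, 319 and 57.2 CPM in YMR and 147, 55.2 and 42 CPM in HDB, and its call (log2 difference 1.42, SE 0.57, edgeR adjusted p = 0.05, just under the threshold) was lost under 8 of 13 alternatives, where the adjusted p reached 0.22. MELO3C021645, chosen after its values were seen, had no count in YMR at day 15 and 18 counts in HDB, and is among the 5 that did not pass the filter on that day. With YMR set to a floor of 3 counts summed over its libraries and the HDB counts taken as exact, YMR was 5.39-fold lower. The spread among replicates is not in this value. The gene had 70 ± 15.1 CPM in YMR and 3.64 ± 1.82 CPM in HDB at day 35 (SD, n = 3 each).

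**Figure D5:**
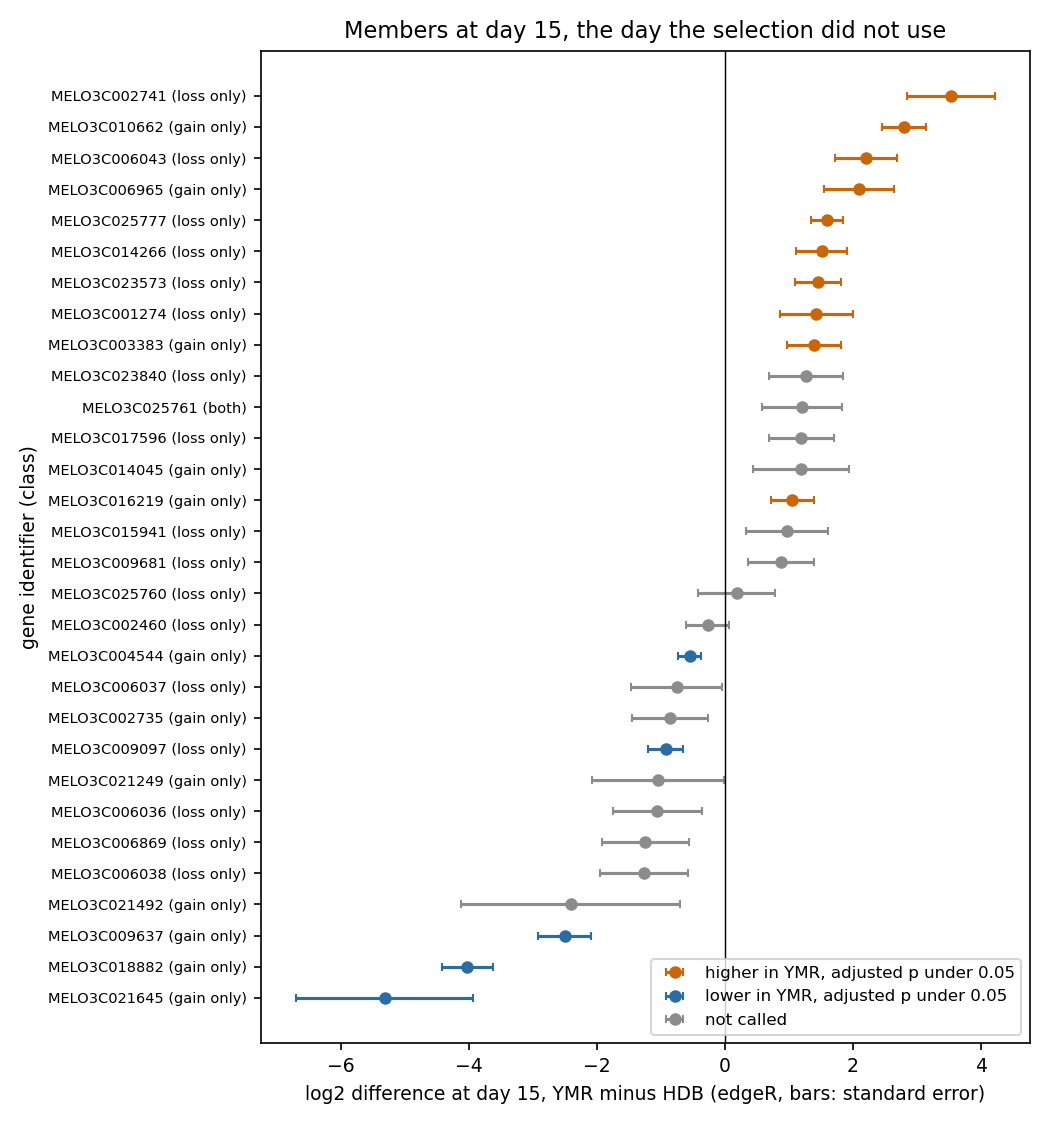
Points are the fitted log2 differences at day 15, YMR minus HDB, with standard errors as bars, for 30 of the 32 genes, since the other 2 had no count at that day. Of the 30, 10 were called higher in YMR, 5 were called lower and 15 were not called. MELO3C021645 had no count in YMR, so its fitted value is no bound.

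The change between day 5 and day 15 draws on day 5, whose values took part in the choice of members and in the classes, so it is a description. In YMR the median log2 change over the 32 was -0.23, and in HDB it was -0.97. The loss-only medians were -1.04 in YMR and -1.87 in HDB, and the gain-only medians 0.19 in YMR and 1.55 in HDB. The gain-only medians include genes without counts, named here for that. MELO3C013129, MELO3C019610, MELO3C021492 and MELO3C021645 had no YMR count on either day and enter the YMR median as 0. MELO3C013129 and MELO3C019610 had none in HDB either. MELO3C014045, MELO3C021492 and MELO3C021645 had no HDB count at day 5, so their fitted HDB changes are no measure of size. A loss-only gene is one with a low late HDB level relative to day 5, so a lower day 15 value in HDB is favoured by how the class was made.

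Single genes differed in this step. MELO3C023840 had 10.2, 34.6 and 7.15 CPM at day 15 and 34.4, 41.5 and 64.6 CPM at day 5 in YMR, and 10.2, 9.54 and 2.37 CPM at day 15 and 22.6, 81.4 and 72.2 CPM at day 5 in HDB. The HDB libraries of day 15 all lay below those of day 5, while in YMR the second library of day 15 was just above the first of day 5. MELO3C018882 had 51.7, 43.4 and 44.2 CPM at day 15 and 19.7, 8.47 and 19.9 CPM at day 5 in YMR, beside the HDB libraries of day 15 given above and 24.9, 22.2 and 8.91 CPM at day 5 in HDB. Day 15 was above day 5 in every library of both cultivars.

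MELO3C016219 was likewise above its day 5 libraries in both. In YMR it had 450, 566 and 456 CPM at day 15 and 107, 102 and 120 CPM at day 5, and in HDB 242, 264 and 204 CPM at day 15 and 31.9, 116 and 93.2 CPM at day 5. By day 35 it had 428, 970 and 668 CPM in YMR and 43, 31.3 and 34.8 CPM in HDB, so the HDB libraries were below 2 of the 3 of day 5. MELO3C002741 ran in opposite directions at the mean, with 90.1 ± 80.8 CPM at day 15 and 34.2 ± 20.4 CPM at day 5 in YMR, and 8.02 ± 2.71 CPM at day 15 and 56.2 ± 30.2 CPM at day 5 in HDB (SD, n = 3 each), and the YMR libraries of the 2 days overlapped.

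The steps after day 15 also use libraries that chose the members, and their fitted values are given without a test. From day 15 to day 25 the median log2 change was 3.21 in YMR and -1.16 in HDB, against medians of -0.07 and -0.13 over all genes tested. It was 5.82 in YMR and 1.05 in HDB for the gain-only genes, and 1.80 in YMR and -2.16 in HDB for the loss-only genes. From day 25 to day 30 the loss-only median was -2.81 in YMR and -1.43 in HDB, and the gain-only median 0.25 in YMR and 0.21 in HDB. From day 30 to day 35 both classes changed little at the median, by 0.22 in YMR and -0.35 in HDB for the gain-only genes and by 0.13 in YMR and 0.06 in HDB for the loss-only genes. MELO3C009097 departed from that last step: its log2 change was 0.63 in YMR and 2.45 in HDB, after -3.90 in YMR and -4.33 in HDB from day 25 to day 30.

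At the edge of the rule stood MELO3C023840, with a smallest late ratio of 4.03, and MELO3C001274, with 4.06. Just outside were MELO3C023665, with 3.95, and MELO3C023120, with 3.89. In all 4 the smallest ratio was that of day 35, and at day 25 their ratios were 18.6, 22, 25.2 and 14. Of 44 genes past the ratio at the 3 late days, 12 were left out by day 5, 9 of them higher and 3 lower in YMR by 2-fold or more. MELO3C004544 and MELO3C025777 came nearest to this limit from inside, with day 5 ratios of 1.89 and 1.79, and MELO3C010872 and MELO3C015643 from outside, with 2.09 and 0.456. MELO3C025777 had 62, 57.4 and 67.7 CPM in YMR and 9.55, 13.9 and 12.8 CPM in HDB at day 25, and 78.6, 98.1 and 123 CPM in YMR and 43, 60.3 and 63 CPM in HDB at day 5, where its cultivars already did not overlap. Library scaling touches the rule as well. TMM factors, which correct for composition, averaged 0.759 in YMR and 0.969 in HDB at day 25, and CPM scaled by them gave 48 genes, all 32 members among them. Without the first HDB library of day 35 the rule found 47.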

How the data were processed

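Per the submitters' processing notes, the tools were HISAT2 (alignment) and HTSeq (counting). Their versions, the genome build, annotation and strand setting: not given in the sources used here. Deposited by the authors were raw read counts per gene for 30 libraries, whole numbers, and every column was used. Columns were assigned by sample title. Replicates differed beyond sampling noise (chi-square per degree of freedom 7.35 to 118) and each counted as 1 sample.

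Members were chosen on CPM of total counts, with 1 added. They, the classes and the lists were chosen with earlier results of these data known. Gene lists by product name could not be applied. Tests used edgeR 4.0.16 (R 4.3.3) on the counts: filterByExpr (minimum count 10, minimum total 15), TMM, robust quasi-likelihood fit with 1 mean per group over all 30 libraries, two-sided, Benjamini-Hochberg adjusted over 18426 genes, called under 0.05. SE is the absolute log2 change over the square root of F. Floors use 3 counts and cover only the counting error of the group without a count. The test was tested on simulated data. Members named are, by rule, those with the most late YMR reads, in all, per class and per peak day, the greatest smallest-ratio, up to 2 per direction at day 15 with a mean of at least 10 CPM, and those at the rule's edges; others are said to be chosen after their values were seen. Changes from day 5 to day 15, within a cultivar and between them, were planned as tests and run; they are given as descriptions instead, because day 5 values took part in the choice of members. Alternatives were RLE factors, total counts, DESeq2 1.42.0, no filter, a replicate block, only the compared groups, each library left out, and, added after seeing the data, only genes passing the filter on the day 15 libraries. Replicate numbers paired no samples.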

Additional observations from a re-analysis of the deposited data

How the results depend on the processing

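Direction held for every member called at day 15 under each alternative that gave it a value, and 8 of the 15 calls held under all of them. In a fit of the compared groups alone, day 15 gave 5 members higher, 3 lower and 3459 genes called, against 10, 5 and 7536 with all groups. Leaving out single libraries gave 7 to 13 members higher, 4 to 6 lower and 6141 to 7511 genes. Restricting the test to genes that pass the filter on the day 15 libraries, an alternative chosen after seeing the data, gave 10 higher and 4 lower. A minimum ratio of 3 in place of 4 gave 76 genes by the rule and of 5 gave 20, and leaving out 1 library gave 28 to 47; 20 of the 32 stayed in through all 24 of these. Equal replicate numbers did not go with joint deviations (correlations -0.27 to 0.175), so the replicate block was no part of the design; with the replicate block 9 members were higher and 5 lower at day 15. Alternatives planned for the change from day 5 to day 15 are not given, since that change is a description. At day 15 depth limits what can be said of the 5 members that fail the filter there.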
